A study of Homo sapiens with 9 samples.

Results

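Of the 26475 genes in the RNA sequencing tables, 44 carry a collagen symbol (COL, a number, A and a number) and were taken as the collagen genes. The cells were Hep3B, an established human liver cancer line, and all 9 libraries were made from cells kept under hypoxia for 6 h. A replicated set held 3 libraries with DMSO, the solvent control, and 3 with the compound labelled DHE, and a separate dose set held 1 library each for DMSO, DHE high and DHE low. The labels give no concentration, no genotype change and no normoxic group, so every value below is a level in hypoxic cells. Whether the replicates were grown as separate cultures is not stated, so the p-values speak only of the spread among these libraries, and that spread may be technical.

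Collagens are secreted proteins in which 3 chains wind into a triple helix, and each chain has its own gene. Fibrillar collagens build the rope-like fibres of connective tissue, collagen IV forms the mesh of basement membranes, collagens VI and VIII form beaded filaments and networks, and FACIT collagens coat fibrils. Chains are hydroxylated in the endoplasmic reticulum by enzymes that use oxygen, leave the cell in large carriers, lose their propeptides and are crosslinked by lysyl oxidases. In the liver most fibrillar collagen comes from stellate cells and fibroblasts, while hepatocytes are known as a source of collagen XVIII, whose C-terminal fragment is endostatin.

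The 9 libraries held 22167516 to 36267216 counts each. Levels are given as CPM, counts scaled to library totals adjusted by TMM factors. A gene at 0 counts may have had up to 3 by counting error alone, or 0.0827 to 0.135 CPM on the unadjusted totals. Among the DHE libraries, replicate 1 lay farthest from the others, with a median absolute log2 difference over 10962 genes of 0.112 and 0.110 to replicates 2 and 3 and of 0.0758 between those. The DMSO pairs lay at 0.0798 to 0.0881. Without DHE replicate 1, edgeR called the same 3 collagen genes higher and the same 5 lower as with it. All 10 hepatocyte markers were measured, with a summed level of 20566 to 21295 CPM in the DMSO replicates. In these bulk libraries fewer cells of a type and less RNA per cell cannot be told apart.

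Start-site sequences were available in RefSeq (GRCh38.p14) for 32 of the 44 collagen genes, and among the 8 that changed with DHE for COL4A4, COL4A6, COL6A2 and COL8A2. They are printed because COL4A4 rose while its neighbour COL4A3, which is read in the opposite direction from the other side of the same short interval, had no called change, and because the other 3 fell. The COL4A4-COL4A3 interval is the 135 bases between the annotated ends of the 2 genes, chr2:227164489-227164623, read on the + strand towards COL4A3. The other sequences are the 250 bases before the start of COL4A6 (chrX:108439459-108439708, - strand), COL6A2 (chr21:46097862-46098111, + strand) and COL8A2 (chr1:36125223-36125472, - strand). Capitals mark ACGTG or GCGTG on either strand, the core bound by hypoxia-inducible factors.
COL4A4-COL4A3 interval: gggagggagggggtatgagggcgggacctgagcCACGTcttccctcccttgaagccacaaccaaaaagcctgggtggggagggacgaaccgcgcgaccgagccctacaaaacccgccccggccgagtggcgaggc
COL4A6: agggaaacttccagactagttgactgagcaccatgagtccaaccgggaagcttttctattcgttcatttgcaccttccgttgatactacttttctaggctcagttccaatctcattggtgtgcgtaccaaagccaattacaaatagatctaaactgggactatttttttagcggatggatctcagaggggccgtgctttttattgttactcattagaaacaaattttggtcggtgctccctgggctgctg
COL6A2: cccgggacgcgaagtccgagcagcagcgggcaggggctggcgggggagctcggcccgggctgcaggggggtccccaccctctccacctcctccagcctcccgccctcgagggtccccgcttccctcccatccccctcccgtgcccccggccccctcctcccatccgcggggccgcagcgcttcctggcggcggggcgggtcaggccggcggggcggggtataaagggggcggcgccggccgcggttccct
COL8A2: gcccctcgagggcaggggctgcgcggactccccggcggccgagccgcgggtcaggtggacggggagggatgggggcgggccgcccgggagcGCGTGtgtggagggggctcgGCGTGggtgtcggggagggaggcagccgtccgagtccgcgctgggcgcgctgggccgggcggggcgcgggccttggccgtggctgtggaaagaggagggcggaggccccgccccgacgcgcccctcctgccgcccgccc
The interval held 1 such core, COL8A2 held 2, and COL4A6 and COL6A2 held 0. Over all 35116 promoters in the table, 43.2% held a core in the same 250 bases and 29.9% in a stretch of 135 bases. The GC box GGGCGG, searched on both strands, was found 2 times in the interval, 7 times at COL8A2, 4 times at COL6A2 and 0 times at COL4A6, against 42.6% of promoters holding it in 250 bases and 35.5% in 135. COL4A6 held CCAAT 3 times (32.0% of promoters in 250 bases) and COL6A2 held TATAAA once (10.7%). COL4A6 has a second start, not printed, whose window of 300 bases (chrX:108438373-108438672) held CCAAT 0 times and the GC box 1 time. The printed COL4A6 stretch was 44.0% G and C, against 79.6% at COL6A2, 82.0% at COL8A2 and 68.1% in the interval. A match is a description of letters, not of a binding site.

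Hep3B cells held a narrow set of collagen transcripts. By TPM, a unit that corrects for transcript length and so allows levels of different genes to be compared, COL18A1 was highest in the DMSO replicates at 176 ± 8.66 TPM (SD, n = 3), followed by COL9A3 at 129 ± 9.78, COL27A1 at 47.3 ± 3.53 and COL2A1 at 40.7 ± 1.66. The ranges of these 4 genes did not touch. They encode the endostatin precursor, a chain of the fibril-coating collagen IX, a fibrillar collagen of cartilage, and the main fibrillar collagen of cartilage. Together they made up 81.4% to 82.3% of the summed collagen TPM in the 6 replicated libraries and 71.9% to 76.4% in the dose set. The order differed there: COL2A1 was highest in all 3 dose-set libraries, at 119 TPM with DMSO, 179.8 at high and 157 at low, where COL18A1 was at 85.2, 100.3 and 72.9 TPM. COL14A1, at 44.0, 45.6 and 41.2 TPM, lay above COL27A1 (37.1, 30.4 and 26.2) in these libraries and above COL9A3 (31.7) at low. COL5A2 (38.7 TPM) also lay above COL27A1 with DMSO. COL7A1 (anchoring fibrils), COL1A1 (the alpha 1 chain of collagen I) and COL14A1 followed at 15.4 ± 1.62, 13.7 ± 0.593 and 12.8 ± 1.15 TPM, with ranges that overlapped from each to the next. COL9A2, COL26A1 and COL6A2, at 8.14 ± 0.823, 8.11 ± 0.840 and 7.70 ± 1.04 TPM, were not separated either. The summed collagen level was 448, 498 and 494 TPM with DMSO and 402, 558 and 519 with DHE, and the groups overlapped.

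**Figure D1:**
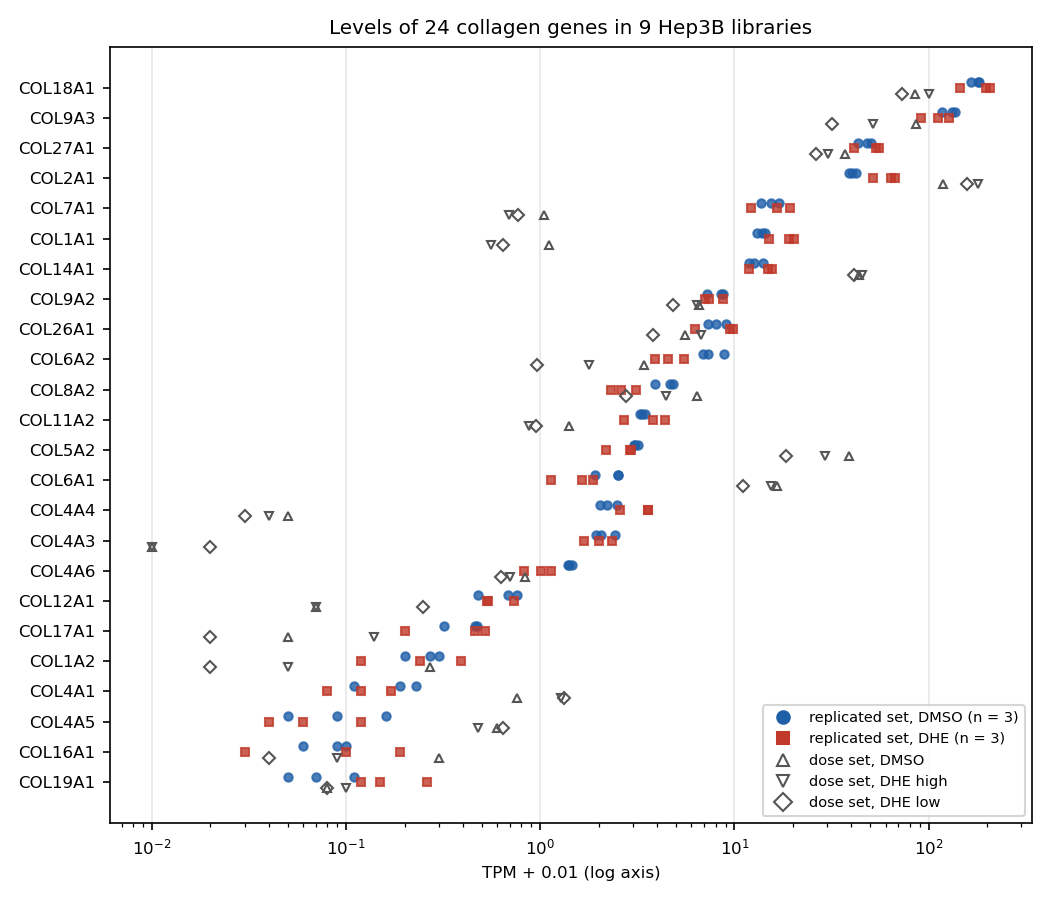
Level of the 24 tested collagen genes in TPM plus 0.01 on a log axis, one point per library (replicated set with 3 DMSO and 3 DHE, and the dose-set libraries as open symbols). COL18A1, COL9A3, COL27A1 and COL2A1 stand above the rest in the replicated set, and the lowest genes lie at or near 0.

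The remaining collagens were scarce. A filter on low counts kept 24 of the 44 genes for testing, and 20 were not tested. COL6A5, COL13A1, COL22A1 and COL25A1 had 0 counts in all 9 libraries. The highest count in any library was 20 for COL5A3, 12 for COL11A1, 11 for COL21A1, 10 for COL20A1 and COL4A2, 9 for COL6A6, 7 for COL9A1 and 6 for COL23A1. It was 5 for COL10A1, 4 for COL3A1 and COL5A1, 3 for COL15A1 and COL24A1, 2 for COL28A1, and 1 for COL6A3 and COL8A1. Several of these are partner chains of genes that were well expressed: COL9A1 beside COL9A2 and COL9A3, COL6A3 beside COL6A1 and COL6A2, and COL5A1 beside COL5A2. COL1A2, the partner of COL1A1 in ordinary collagen I, passed the filter at only 0.784 ± 0.180 CPM with DMSO and 0.725 ± 0.385 with DHE (SD, n = 3 each).

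DHE changed 8 of the 24 tested collagen genes, in both directions. COL2A1, COL4A4 and COL1A1 rose 1.29- to 1.46-fold, and COL8A2, COL6A2, COL6A1, COL4A6 and COL9A3 fell 1.199- to 1.70-fold. That is 33.3% of the tested members, beside 26.2% of all 14492 tested genes, where 13.4% were called higher and 12.8% lower at an adjusted p under 0.05 in edgeR's quasi-likelihood test. The median log2 fold change was -0.10 over the 24 collagen genes and -0.003 over all genes. The DMSO and DHE libraries did not overlap in CPM for 10 of the 24 (41.7%), a share close to the 41.6% of all tested genes. Fitted on TPM values with limma, in place of counts, 1 gene was called higher (COL2A1) and 2 lower (COL6A2 and COL8A2). Of the 16 genes that were not called on counts, 8 had a higher and 8 a lower mean with DHE.

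**Figure D2:**
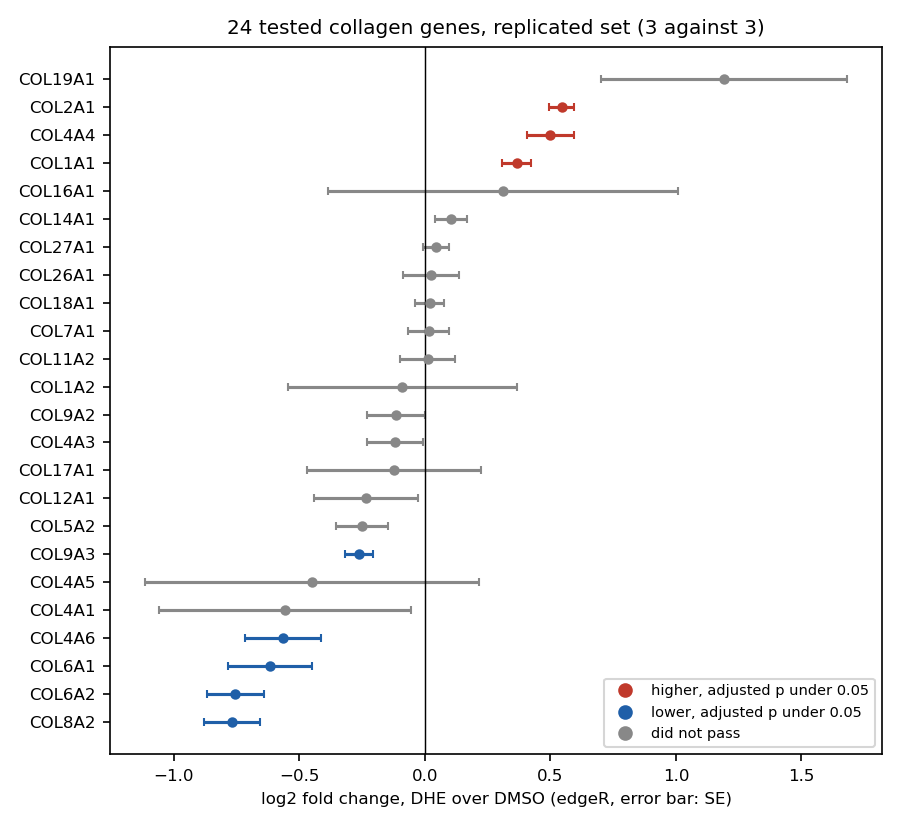
Log2 fold change of the 24 tested collagen genes, DHE against DMSO (3 libraries each), with bars of 1 standard error from edgeR. The 3 genes called higher and the 5 called lower lie between -0.77 and 0.55, and the widest bars belong to genes of few counts.

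Among the 11 fibrillar collagen genes 6 were tested, 2 rose and 0 fell. COL2A1 (chr12:47972967-48006212) stood at 124, 122 and 116 CPM in the DMSO replicates and at 171, 181 and 176 CPM in the DHE replicates. Every DHE library lay above every DMSO library, by 1.46-fold (log2 fold change 0.55 ± 0.05 SE, edgeR adjusted p = 1.18e-05). COL2A1 passed the threshold under every alternative tried. COL1A1 (chr17:50184101-50201631) stood at 49.0, 46.8 and 48.4 CPM with DMSO and 59.3, 64.2 and 62.1 CPM with DHE. The groups did not overlap and the rise was 1.29-fold (0.37 ± 0.06, edgeR adjusted p = 5.92e-04, with a range of 3.88e-06 to 0.124 over the alternatives). The 0.124 is the value in limma on log2(TPM + 1).

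The other fibrillar genes were not called. COL27A1 was at 217, 228 and 217 CPM with DMSO and 215, 235 and 233 CPM with DHE, a log2 fold change of 0.04 with a 95% interval of -0.06 to 0.15. COL11A2 was at 12.4, 11.1 and 11.9 CPM and then 10.5, 13.2 and 11.98 CPM (0.01, interval -0.20 to 0.23). For these 2 genes the groups overlapped. COL5A2, a chain of collagen V, was at 13.99, 12.1 and 12.3 CPM with DMSO and 10.04, 10.96 and 11.1 CPM with DHE. These groups did not overlap, and the log2 fold change was -0.25 ± 0.10 with an edgeR adjusted p of 0.0917. In a fit over all 9 libraries it was 0.0446, and over all alternatives it ranged from 0.0446 to 0.592. COL1A2 had a log2 fold change of -0.09 with an interval of -0.98 to 0.80, which spans both a fall and a rise.

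In collagen IV, the basement membrane class, 5 of 6 genes were tested, with 1 higher and 1 lower. COL4A4 (chr2:226967360-227164488) was at 13.6, 14.9 and 13.2 CPM with DMSO and at 17.9, 20.1 and 21.0 CPM with DHE. The libraries did not overlap, and COL4A4 rose 1.41-fold (0.50 ± 0.10, edgeR adjusted p = 0.00204, range over the alternatives 1.65e-04 to 0.184). COL4A3 (chr2:227164624-227314792), which starts across the interval printed above, was at 9.97, 11.3 and 9.63 CPM and then 9.10, 10.3 and 9.07 CPM. Its groups overlapped, and its log2 fold change was -0.12 ± 0.11 (edgeR adjusted p = 0.463, 95% interval -0.34 to 0.10). The alpha 3 and alpha 4 chains assemble with alpha 5 in the collagen IV network of the kidney filter. RHBDD1 overlaps COL4A4 in the annotation and whether counting used strand is not given in the sources used here. RHBDD1 itself was at 1.55 CPM with DMSO and 1.27 CPM with DHE (edgeR adjusted p = 0.596).

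The TPM ratio of COL4A3 to COL4A4 was 0.946, 0.976 and 0.936 in the DMSO replicates and 0.659, 0.657 and 0.556 in the DHE replicates. The chains were thus at near-equal levels with DMSO, and every DHE ratio lay below every DMSO ratio. The mean log2 ratio differed by -0.61, with a two-sided exact permutation p of 0.1, the smallest that 3 against 3 libraries can give, and 0.4 adjusted over the 4 pairs compared. The other 3 pairs overlapped between groups: the log2 ratio differed by 0.59 for COL1A1 to COL1A2 (exact p = 0.3), by 0.14 for COL6A1 to COL6A2 (exact p = 0.3) and by 0.16 for COL9A2 to COL9A3 (exact p = 0.4). Pairs of COL4A1, COL4A5 and COL5A1 with their partners had too few counts.

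**Figure D3:**
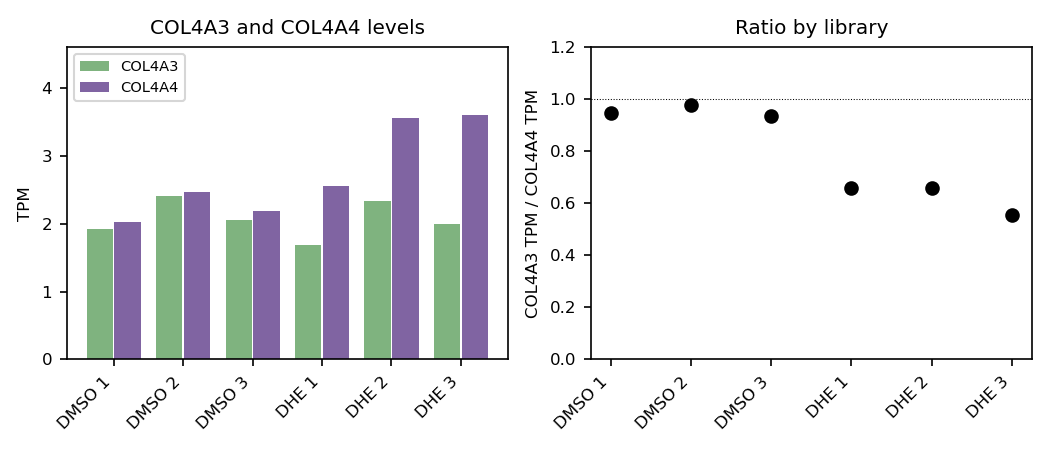
COL4A3 and COL4A4 in TPM (each bar is a single library) and their ratio (each point is a single library) in the 3 DMSO and 3 DHE libraries. The ratio is 0.936 to 0.976 with DMSO and 0.556 to 0.659 with DHE.

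COL4A6 (chrX:108155614-108439458), the alpha 6 chain, was at 6.16, 5.34 and 5.30 CPM with DMSO and 3.61, 4.03 and 3.70 CPM with DHE. The groups did not overlap and COL4A6 fell 1.48-fold (-0.56 ± 0.15, edgeR adjusted p = 0.0154). Leaving out DMSO replicate 1 gave an adjusted p of 0.0777, and the range over the alternatives was 0.0120 to 0.270. COL4A5 and COL4A1 had under 1 CPM in all 6 libraries and were not called. Their log2 fold changes of -0.45 and -0.56 had 95% intervals of -1.75 to 0.85 and -1.54 to 0.43.

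Both tested genes of collagen VI, which forms beaded filaments around cells, fell. COL6A2 (chr21:46098112-46132848) was at 13.99, 16.3 and 13.5 CPM with DMSO and 8.31, 7.94 and 9.68 CPM with DHE. Its libraries were well separated, and the fall was 1.69-fold (-0.75 ± 0.12, edgeR adjusted p = 5.00e-04). COL6A1 (chr21:45981770-46005048) was at 4.96, 5.88 and 5.90 CPM and then 3.08, 3.59 and 4.20 CPM. These groups did not overlap, and the fall was 1.53-fold (-0.62 ± 0.17, edgeR adjusted p = 0.0161, range 0.00492 to 0.194). Without DMSO replicate 2 the adjusted p of COL6A1 was 0.0551 and without DMSO replicate 3 it was 0.0593. The class of short-chain network collagens had 1 tested gene, COL8A2 (chr1:36095239-36125222), a chain of the collagen VIII network under endothelia. COL8A2 was at 10.998, 12.3 and 11.8 CPM with DMSO and 6.80, 7.40 and 6.41 CPM with DHE, the largest fall among the called collagens at 1.70-fold (-0.77 ± 0.11, edgeR adjusted p = 3.28e-04). COL6A2 and COL8A2 passed the threshold under every alternative tried.

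**Figure D4:**
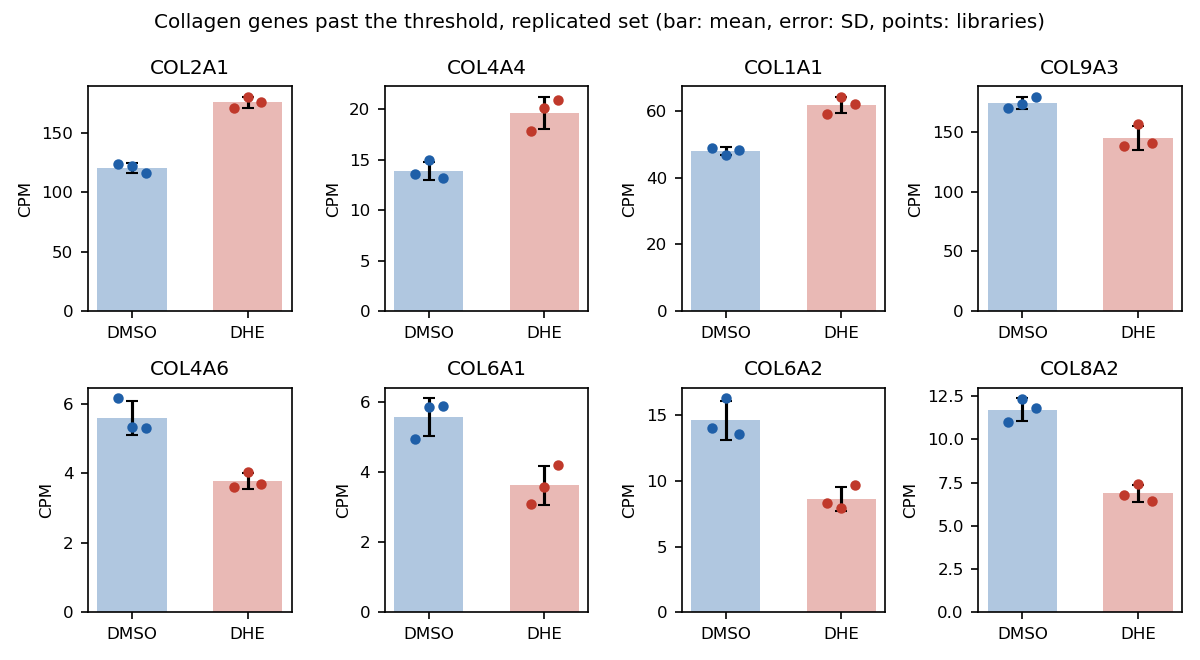
Level in CPM of the 8 called collagen genes, one panel each; points are libraries, bars are means with SD (3 DMSO, 3 DHE), each axis starting at 0. The DMSO and DHE points do not overlap in any of the 8 panels.

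Of the 10 FACIT collagen genes 6 were tested, 0 rose and 1 fell. COL9A3 (chr20:62816213-62841159) was at 169.99, 174 and 179.8 CPM with DMSO and 139, 157 and 141 CPM with DHE. The groups did not overlap in CPM but did in TPM. COL9A3 fell 1.199-fold (-0.26 ± 0.06, edgeR adjusted p = 0.00485, range 3.41e-04 to 0.269), and in limma on log2(TPM + 1) it did not pass (0.269). TCFL5 overlaps COL9A3 in the annotation and averaged 20.9 CPM in both groups. COL9A2, its partner chain, was at 14.3, 13.2 and 10.98 CPM and then 12.3, 12.4 and 10.8 CPM (-0.11, 95% interval -0.34 to 0.11). COL14A1, which decorates collagen I fibrils, was at 48.4, 52.3 and 46.6 CPM and then 50.9, 53.9 and 53.5 CPM (0.10, interval -0.02 to 0.23). For both genes the groups overlapped. COL12A1, COL16A1 and COL19A1 were scarce, at under 6 CPM in every library. Their log2 fold changes with DHE were -0.23, 0.31 and 1.19, and none was called. COL19A1 averaged 0.368 ± 0.184 CPM with DMSO and 0.835 ± 0.288 with DHE (SD, n = 3 each) in groups that did not overlap, with an edgeR adjusted p of 0.0933.

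COL18A1, the highest collagen transcript of the replicated set, did not differ between its groups beyond the spread. It was at 568, 558 and 562 CPM in the DMSO replicates and 522, 600.0 and 589 CPM in the DHE replicates, so the groups overlapped. Its log2 fold change was 0.02 with a 95% interval of -0.10 to 0.13 (edgeR adjusted p = 0.841). SLC19A1, which overlaps COL18A1 in the annotation, fell in the same fit (-0.39, edgeR adjusted p = 0.00211). COL7A1 was at 81.2, 90.7 and 82.7 CPM and then 74.8, 96.5 and 85.7 CPM (0.01, interval -0.14 to 0.17). COL26A1 was at 13.2, 13.1 and 14.8 CPM and then 11.8, 15.1 and 14.9 CPM (0.02, interval -0.19 to 0.24). COL17A1, a transmembrane collagen of epithelial attachment, was at 1.33 ± 0.207 and 1.21 ± 0.432 CPM (SD, n = 3 each; -0.12, interval -0.80 to 0.56).

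The deposited tables also give each gene's mean transcript length, weighted by the estimated abundance of its transcripts, so a shift in it reports a change in the transcript mix. It could be fitted for 7 collagen genes with more than 1 transcript, and limma called 0 of them, with 0 at an unadjusted p under 0.05, beside 0.0155% of all 6433 genes fitted. The mean length of COL18A1 stayed within 5436 to 5447 bases in the 6 libraries. COL12A1, with lengths of 10227 to 11579 bases in these libraries, had the smallest unadjusted p (limma, 0.0547, adjusted 0.623), and COL11A2 followed at 0.0886 with lengths of 5669 to 6036 bases.

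Genes that make, export, process, bind or break down collagen were followed in 7 lists of 104 genes, of which 79 were tested. With DHE 19 were called higher and 18 lower (46.8%, beside the 26.2% over all genes), and their median log2 fold change was -0.02. Without DMSO replicate 2 the lower calls numbered 11. In the endoplasmic reticulum, 3 of 17 tested genes rose and 6 fell. SERPINH1, the collagen chaperone HSP47, rose from 265 ± 3.63 to 348 ± 6.44 CPM (SD, n = 3 each; 0.39 ± 0.05 SE, edgeR adjusted p = 9.80e-05). CRTAP, a part of the prolyl 3-hydroxylase complex, fell from 40.8 ± 0.482 to 29.0 ± 1.52 CPM (-0.49 ± 0.07, edgeR adjusted p = 2.55e-04). FKBP14, a prolyl isomerase, and COLGALT1, which adds galactose to hydroxylysine, fell by 0.34 and 0.29 on the log2 scale. Chaperone and modifying enzymes thus had called changes in both directions. In the dose set, with 1 library per group, FKBP14 was higher, with log2 ratios of 0.18 at high and 0.70 at low. SERPINH1 was at 0.30 and 0.15 there, CRTAP at -0.01 and -0.10, and COLGALT1 at -0.03 and -0.21.

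Procollagen leaves the endoplasmic reticulum in COPII carriers enlarged with the help of MIA3 (TANGO1). In this list 1 of 11 tested genes, TANGO2, was higher and 4 were lower. Whether TANGO2 has a part in procollagen export was not tested here. MIA3 fell by 0.39, the COPII coat gene SEC23A by 0.36, SEC13 by 0.20 and SEC24D by 0.17 on the log2 scale. SEC24D lost the call without DMSO replicate 1, 2 or 3 or DHE replicate 3 (edgeR adjusted p 0.0564, 0.0771, 0.0619 and 0.0786), and its adjusted p ranged from 0.0138 to 0.534 over the alternatives. TANGO2, called higher at 0.31, lost the call without DMSO replicate 1 or 2 or DHE replicate 2 or 3 (edgeR adjusted p 0.148, 0.0887, 0.101 and 0.121), so the list then had 0 higher. Of the genes for propeptide removal and crosslinking, 4 of 11 tested rose and 3 fell. The lysyl oxidase family was split: LOXL4 rose from 183 ± 8.15 to 319.6 ± 15.7 CPM (0.80 ± 0.06, edgeR adjusted p = 1.35e-06), while LOX fell from 418 ± 5.70 to 281 ± 3.10 CPM (-0.57 ± 0.05, edgeR adjusted p = 5.05e-06; SD, n = 3 each). FURIN, the protease that activates several propeptide enzymes, and TGM2, a crosslinking transglutaminase, rose by 0.40 and 0.43 on the log2 scale. The dose set, with 1 library per group, differed. There LOXL4 and TGM2 were lower, with log2 ratios of -0.41 and -1.08 at high and -1.48 and -1.60 at low. LOX was lower there too (-0.91 and -1.85), and FURIN was at 0.23 and -0.11. Of the export genes, MIA3 (0.06 and 0.41), SEC13 (0.06 and 0.08) and SEC24D (0.17 and 0.33) were higher there at high and low. SEC23A (-0.15 and -0.35) and TANGO2 (-0.18 and -0.04) were lower there.

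Among collagen receptors, ADGRG1 rose (0.28) and the collagen-activated kinase DDR1 fell (-0.17), out of 8 tested. DDR1 had an edgeR adjusted p of 0.0319, with a range of 0.0140 to 0.535 over the alternatives, and lost the call without DMSO replicate 1, 2 or 3 or DHE replicate 1 (0.0755, 0.112, 0.0690 and 0.0596). ITGA2 and MRC2 had log2 fold changes of -0.09 and -0.19 and were not called. Of the 9 tested genes for collagen breakdown and its inhibitors, MMP11 rose (0.37, edgeR adjusted p = 0.00706) and 0 fell. The next by p, TIMP4, MMP7 and TIMP3, had log2 fold changes of -0.53, 0.33 and -0.17 and were not called. The collagenases MMP1, MMP8 and MMP13, with MMP2 and MMP3, had 0 counts in all 9 libraries. Other members of the list were abundant and not called. MMP14 was at 285 ± 4.23 CPM with DMSO and 296 ± 14.1 with DHE, and MMP15 at 129 ± 1.03 and 133 ± 7.20 (SD, n = 3 each). Among 7 tested fibril-associated proteins, THBS1 (thrombospondin 1) rose from 307 ± 3.55 to 771 ± 42.3 CPM (1.33 ± 0.06, edgeR adjusted p = 2.92e-08; SD, n = 3 each). BGN (biglycan) fell by 0.31 on the log2 scale, and TNXB fell by 0.68 at an edgeR adjusted p of 0.0439 (range 0.0284 to 0.540). The call on TNXB was lost whichever library was left out (0.0511 to 0.181). LUM had a log2 fold change of 0.24 and was not called. Log2 ratios in the dose set at high and low were 1.31 and 1.17 for THBS1. For MMP11 they were -0.40 and -1.65, opposite to its rise in the replicated set.

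Among 16 tested regulators of collagen transcription, 8 rose and 2 fell. TGFB2, a ligand of the TGF-beta pathway that induces collagen genes in many cells, rose from 11.8 ± 1.01 to 26.4 ± 1.05 CPM (SD, n = 3 each; 1.16 ± 0.09 SE, edgeR adjusted p = 3.86e-06). The receptor genes TGFBR1 and TGFBR2 rose by 0.37 and 0.32 in log2 fold change. RUNX2 fell by 1.06 on the log2 scale (edgeR adjusted p = 0.0208, range 0.0131 to 0.130). The call on RUNX2 was lost without DMSO replicate 2 or 3 or DHE replicate 2 (0.0604, 0.0929 and 0.0672). In the dose set, with 1 library per group, the log2 ratios of TGFB2 were 0.18 at high and -0.03 at low, without the rise of the replicated set. TGFBR1 was at 0.44 and 0.49 there, TGFBR2 at 0.28 and -0.05, and RUNX2 at -0.82 and 0.43.

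Markers of collagen-producing mesenchymal cells were sparse. Of 13 fibroblast and stellate cell markers outside the collagens, 5 were tested, ACTA2, DCN, PDPN and POSTN had 0 counts in all 9 libraries, and 7 stayed under 10 counts. TAGLN rose from 4.43 ± 0.836 to 8.53 ± 0.792 CPM and PDGFRA from 25.5 ± 1.202 to 31.2 ± 2.42 CPM (SD, n = 3 each; edgeR adjusted p = 7.57e-04 and 0.0187). The summed level of the list was 54.6 to 59.4 CPM with DMSO and 69.4 to 73.5 CPM with DHE, and the part of this list in the collagen changes was not tested. Of 12 endothelial markers 2 were tested, and PECAM1 fell (-0.92). Their summed level was 30.7 to 32.4 CPM with DMSO and 27.7 to 31.3 CPM with DHE. Of 12 leukocyte markers 5 were tested and CD68 and LYZ fell, with sums of 98.7 to 108 and 57.4 to 66.0 CPM. Of the 10 hepatocyte markers 5 rose and 4 fell, and their sum was 18596 to 19453 CPM with DHE, below that with DMSO. Of 5 biliary markers 4 were tested and SOX9 rose (0.20).

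The dose set has 1 library per group, so its differences have no replicate check. Ratios are given with exact binomial (Clopper-Pearson) 95% intervals, which cover counting error only, and both doses share 1 DMSO library. Of 20 collagen genes with at least 20 counts in a library, 4 were at least 2-fold lower in the library labelled high (COL1A1, COL1A2, COL6A2 and COL16A1) and 0 were 2-fold higher, where 3.39% of all 13468 genes were lower and 0.898% higher. In the library labelled low 6 were at least 2-fold lower (COL1A2, COL5A2, COL6A2, COL8A2, COL9A3 and COL16A1) and 1, COL12A1, was higher, where 6.68% of all genes were lower and 2.96% higher. COL1A2 and COL16A1 reached 20 counts only with DMSO, and COL12A1 only in the low library. The filter thus favours the direction seen for these genes, and their place in the counts is not a separate result. The median log2 ratio of the 20 genes was -0.42 in the high and -0.67 in the low library, beside 0.003 and 0.008 over all genes. The summed levels of the cell type markers also differed between these libraries. The hepatocyte sum was 56709, 29861 and 16447 CPM with DMSO, high and low (ALB -1.37 and -2.33 and AFP -1.64 and -3.04 in log2 ratio at high and low), and the endothelial sum was 17.0, 9.69 and 9.30 CPM. The leukocyte sum was 139, 118.6 and 83.5 CPM and the biliary sum 1227, 1170.1 and 1075 CPM. The fibroblast and stellate cell sum was 42.5, 41.5 and 57.9 CPM, with TAGLN at -0.71 and -1.49, PDGFRA at -0.48 and -1.87, and LUM at 0.53 and 1.38 in log2 ratio. These sums are on CPM scaled over all 9 libraries, and their part in the collagen ratios was not tested.

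COL2A1 was at 356 CPM with DMSO, 497 at high and 420 at low, which is 1.39-fold (1.36 to 1.43) and 1.18-fold (1.15 to 1.21) higher. COL9A3 was at 119, 65.9 and 39.3 CPM in the same order, 1.80-fold (1.70 to 1.91) and 3.02-fold (2.80 to 3.26) lower. COL2A1 was thus higher, and the collagen IX chain COL9A3 lower, at both labelled doses. COL6A2 was at 6.71, 3.21 and 1.68 CPM, 2.09-fold (1.60 to 2.76) lower at high, and 2.81- to 5.82-fold lower (log2 ratio -1.95) at low. COL6A1 was at 41.1, 35.2 and 24.4 CPM, 1.17-fold (1.07 to 1.28) and 1.68-fold (1.52 to 1.87) lower. COL8A2 was at 17.0, 10.8 and 6.58 CPM, 1.57-fold (1.35 to 1.83) and 2.58-fold (2.14 to 3.12) lower. The collagen VI and VIII genes were lowest in the library labelled low. COL5A2 was at 161, 112 and 68.4 CPM, 1.44-fold (1.37 to 1.51) and 2.35-fold (2.22 to 2.49) lower.

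COL1A1 had 100, 46 and 46 counts with DMSO, high and low, that is 3.90, 1.80 and 1.98 CPM, 2.17-fold (1.52 to 3.15) and 1.97-fold (1.38 to 2.86) lower. Its partner COL1A2 had 21, 3 and 1 counts, COL16A1 had 25, 6 and 2, and COL12A1 had 10, 7 and 27. These 4 genes thus rest on few reads. COL18A1 was at 275, 299 and 210.5 CPM, 1.09-fold (1.05 to 1.12) higher at high and 1.31-fold (1.26 to 1.36) lower at low. COL27A1 was at 175, 132 and 110.4 CPM, 1.32-fold (1.26 to 1.38) and 1.58-fold (1.51 to 1.66) lower. COL4A6 was at 3.28, 2.54 and 2.24 CPM, 1.29-fold (0.922 to 1.81) and 1.47-fold (1.02 to 2.11) lower, an interval that includes 1 at high. COL4A4 had 6, 5 and 2 counts and COL4A3 had 0, 0 and 1, so the pair could not be read here, and RHBDD1, which overlaps COL4A4, had 106, 124 and 192. COL4A1 was at 2.93, 4.57 and 4.22 CPM, 1.56-fold (1.16 to 2.12) and 1.44-fold (1.06 to 1.97) higher.

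**Figure D5:**
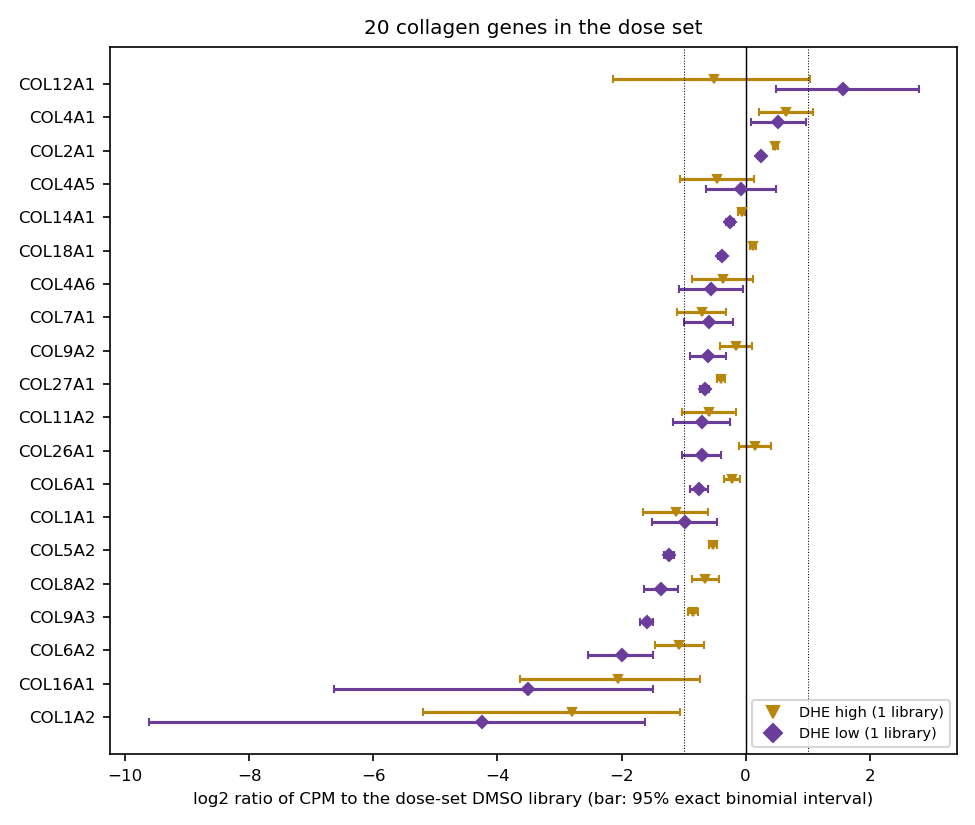
Log2 ratio of 20 collagen genes in the dose set, DHE high and DHE low against the same DMSO library, with exact binomial 95% intervals of the counts (counting error only, 1 library per group). COL2A1 and COL4A1 lie above 0 at both doses, and COL9A3, COL6A2, COL8A2 and COL5A2 lie below.

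Over all 9 libraries, the genes whose log2 CPM followed that of COL18A1 most closely, among 10917 ranked, were LAMB1 (Pearson r = 0.993), PDK2 (0.993), WDR91 (0.992), C1QTNF6 (0.991) and NEURL1B (0.991). These correlations are a description: the libraries fall into the replicated and the dose set, which differ in the level of COL18A1, and the points share their library depth and set.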

How the data were processed

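Libraries of polyA RNA were made with an NEBNext Ultra kit from RNA extracted with TRIzol, per the labels' protocols. The authors deposited 1 RSEM gene table per library, and the titles of the samples gave the groups and replicate numbers. The expected count, an estimated count per gene that is not normalized, and the TPM, scaled by the authors for transcript length and library total, are given per the file headers, as is the mean transcript length. FPKM values were not used. Per the submitters' processing notes, GRCh38 was the genome. Not given in the sources used here are the aligner, tool versions and use of strand.

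Counts were rounded to whole numbers (5.60% to 6.51% of genes in a library had a fractional value). The comparison of DHE with DMSO (3 libraries each) used edgeR 4.0.16 (R 4.3.3): TMM factors, the default filter by group, its quasi-likelihood F-test (two-sided), Benjamini-Hochberg adjustment over all 14492 tested genes, and a threshold of 0.05. CPM are counts scaled by TMM. The SE was taken as the size of the log2 fold change divided by the square root of F, and 95% intervals of log2 fold changes are 1.96 SE either side. Mean transcript length was fitted with limma 3.58.1 on the log2 scale. In the dose set log2 ratios of TMM-scaled CPM have a prior count of 2 and no test. The steps were tested on simulated data. All 44 members were matched by transcript accession to RefSeq GRCh38.p14, as were 25888 of 26475 genes, for coordinates and start-site sequences.

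All 44 members are accounted for. Those past the threshold or with a mean of at least 5 CPM are given in every library, and up to 4 genes per list were named by smallest p, plus TANGO2 and RUNX2, on which a list's count turned. A gene named by this rule is not reported here. The members and lists were chosen with earlier results of these data known, so counts over them are descriptions. Alternatives were limma-voom, DESeq2 1.42.0, limma on TPM with a pseudocount of 1 or 0.1 on the log2 scale, RLE, upper-quartile or no scaling factors, a looser and a stricter filter, each library left out in turn, the replicate number as a block, and all 9 libraries in 1 fit. Plots used matplotlib 3.10.9 (Python 3.11.15).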

Additional observations from a re-analysis of the deposited data

Results flagged for a closer look

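COL1A1 moved in opposite directions in the 2 sets of libraries. In the replicated set all 3 DHE libraries lay above all 3 DMSO libraries, at a log2 fold change of 0.37. In the dose set both DHE libraries lay below the DMSO library, at log2 ratios of -1.08 for the library labelled high and -0.95 for the library labelled low. The difference was not tested, and the dose set has 1 library per group with 100, 46 and 46 counts of COL1A1.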

How the results depend on the processing

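The 8 called collagen genes kept their direction under all 17 alternatives, and 123 of 136 values kept the call. Limma on log2(TPM + 1) and on log2(TPM + 0.1) called 1 collagen gene higher (COL2A1) and 2 lower (COL6A2 and COL8A2), and over all genes 945 and 922 in place of 3803; the cause was not tested. Limma on log2(TPM + 1) called 5 of the other pathway genes higher and 2 lower. With any 1 library left out there were 3 to 3 collagen genes higher and 4 to 5 lower, 16 to 20 pathway genes higher and 11 to 17 lower, and 2571 to 3980 called over all genes. Directions turned only for genes without a call: COL11A2 (-0.0059) and COL7A1 (-0.0034) with upper-quartile factors, COL16A1 (-0.13) with limma-voom, and, leaving out libraries, COL11A2 (-0.066 to 0.093), COL16A1 (-0.38 to 0.83), COL17A1 (-0.31 to 0.13), COL18A1 (-0.016 to 0.080), COL1A2 (-0.57 to 0.20), COL26A1 (-0.033 to 0.13), COL4A5 (-1.18 to 0.075), COL7A1 (-0.076 to 0.10) and MRC2 (-0.35 to 0.033). In the dose set 96 of 120 values stayed within their counting interval. Scaling by library totals moved the median of all genes to 0.08 at high and 0.15 at low, and TPM ratios to 0.12 and 0.17. With both, COL14A1 at high turned from -0.06 to 0.01 and 0.05, and COL4A5 at low from -0.07 to 0.07 and 0.09; neither had reached 2-fold.

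With the replicate number as a block, edgeR called the same 3 collagen genes higher and the same 5 lower, 20 pathway genes higher and 19 lower, and 4436 over all genes. Same-numbered DMSO and DHE libraries had correlations of their deviations of 0.0850, 0.0525 and -0.0477. With 3 libraries per group these values cannot settle whether same-numbered samples were handled as pairs, which the labels do not state.

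Genes under about 1 CPM had wide intervals, and changes in the 20 untested genes were not detectable at this depth.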

Other observations

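The 2 sets differed in collagen levels already with DMSO. On CPM scaled over all 9 libraries, with 1 dose-set library against 3 replicates, COL5A2 was at 171 CPM in the dose set and 11.7 to 13.6 in the replicated set. COL6A1 was at 43.6 against 4.81 to 5.72, COL14A1 at 181 against 45.2 to 50.5, and COL2A1 at 378 against 113 to 120 CPM. In the other direction, COL7A1 was at 6.04 against 78.7 to 87.6 CPM, COL1A1 at 4.14 against 45.2 to 47.5, and COL4A4 at 0.25 against 12.8 to 14.4. COL4A3 had 0 counts in the dose set DMSO library and was at 9.34 to 10.9 CPM in the replicated set. The set and anything else that differs between the sets cannot be told apart.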
